A study of Mus musculus with 6 samples.

Results

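The ADAM, ADAMTS and ADAMTS-like genes encode a family of cell-surface and secreted metalloproteinases and their non-catalytic relatives. Members were taken from the array annotation by name: every probe whose symbol was Adam, Adamts or Adamtsl followed by a number, together with Thsd4, which is also known as Adamtsl6. The rule used no measured value, but it was chosen with earlier results of these data known. It gave 54 genes on 114 probes, of 19057 genes and 45281 probes on the array. Of the 54 genes, 32 were ADAM genes, 17 were ADAMTS genes and 5 belonged to the ADAMTS-like group.

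The cells were lung fibroblasts of mice with a knock-in at a p38 locus on both chromosomes (ki, p38ki/ki) and of mice with unaltered p38 (wt, p38+/+). Total RNA came from 3 different ki mice and 3 different wt mice, with 1 Illumina bead array per mouse. All animals were 10 weeks old, and all cultures grew in DMEM/F12 with 15% fetal calf serum and were used at passage 1. The labels state neither which p38 gene carries the allele, nor the change it makes, nor the sex of the mice, and no treatment is named.

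ADAMs are mostly membrane-anchored and release the outer parts of growth factors, cytokines, receptors and adhesion proteins, a step called shedding, while some members have lost the catalytic site and act in adhesion. ADAMTS enzymes are secreted, carry thrombospondin type 1 repeats and cut matrix proteins such as the large hyaluronan-binding proteoglycans, procollagens and cartilage oligomeric matrix protein. ADAMTS-like proteins share the repeats but have no protease domain, and several of them bind fibrillin microfibrils, the scaffolds of elastic fibres that also hold latent TGF-beta in tissues such as lung. p38 kinases respond to stress and cytokines, and their targets include transcription factors and proteins that control mRNA stability.

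Each level below is a log2 intensity after normalisation, and each difference is the ki mean minus the wt mean on that log2 scale, given with its standard error (SE). There were n = 3 mice of each genotype. The number of arrays limits their precision. A gene was tested where 3 or more of the 6 arrays detected a probe of it (detection p under 0.05), and the brightest such probe stood for the gene. A gene passed at a Benjamini-Hochberg adjusted p under 0.05 in limma's moderated test over all 10412 genes tested, and every adjusted p below comes from that fit unless a probe-level fit over all 18249 detected probes is named. Probes of different genes differ in their response, so levels are compared between arrays and not between genes.

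Across all probes, the ki arrays had 17601 to 18531 detected and the wt arrays 17793 to 18389, and the mean background-subtracted signal was 519.4 to 694.7 on ki arrays and 712.3 to 846.7 on wt arrays. The fibroblast genes Col1a1, Col1a2, Dcn, Pdgfra and Vim were detected on all 6 arrays, and of 12 fibroblast markers tested 0 were higher in ki, 5 were lower and 7 did not pass. Of all genes tested, 16.2% passed, 8.71% higher and 7.5% lower in ki. Markers of other cell types also moved. Of 10 mesothelial markers tested, 9 were higher and 1 lower, with a median difference of 2.74, and the log2 of their summed intensity was 13.53 to 13.61 on ki arrays and 12.38 to 12.48 on wt arrays. Krt19 and Gpm6a of this list were detected on no wt array, so the sizes of their differences are uncertain. Of 7 epithelial markers tested, 5 were higher and 0 lower, with summed levels of 12.41 to 12.43 on ki arrays and 10.48 to 10.60 on wt arrays, while Epcam, Sftpc, Sftpb and Foxj1 were detected on no array. All 9 neutrophil markers tested were lower in ki, with a median of -2.52 and summed levels of 12.25 to 12.49 on ki arrays and 14.08 to 14.19 on wt arrays, while Cxcr2 was detected on no array. Mpo, Ctsg, Ngp and Camp were detected on no ki array, so the sizes of their differences are uncertain. The 11 macrophage markers tested had summed levels of 17.38 to 17.43 on ki arrays and 17.47 to 17.49 on wt arrays, with 2 higher and 2 lower. Of 7 endothelial markers 0 passed, with summed levels of 11.28 to 11.39 on ki arrays and 11.50 to 11.61 on wt arrays. Of 6 pericyte and smooth muscle markers 2 were higher and 2 lower, with summed levels of 12.99 to 13.22 on ki arrays and 13.46 to 13.55 on wt arrays, and Rgs5 was detected on no array. In such bulk cultures fewer cells of a type and less RNA per cell cannot be told apart. The part of these marker shifts in the family's differences was not tested.

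Between 29 and 38 of the 114 family probes were detected on an array. Of the 54 genes, 23 were tested, on 35 probes, and of all 19057 genes 10412 were tested. Another 10 had a probe detected on some array but on fewer than 3, and 21 were detected on no array. The tested genes were 9 of 32 ADAMs, 9 of 17 ADAMTS genes and 5 of 5 ADAMTS-like genes. Of the 21 members on the array from the list of ADAMs known from testis, sperm and epididymis, where they act in sperm maturation and binding to the egg, 14 were detected on no array and only Adam4 was tested. The 14 were Adam2, Adam3, Adam5, Adam6a, Adam6b, Adam18, Adam20, Adam21, Adam25, Adam26a, Adam26b, Adam30, Adam34 and Adam39. In the same list Adam1b, Adam7, Adam24, Adam29, Adam32 and Adam34l were detected on 1 or 2 arrays. The other members detected on no array were the sheddase Adam33, the procollagen N-proteinases Adamts3 and Adamts14, Adamts13 (which cuts von Willebrand factor), Adamts17, Adamts18 and Adamts19. Adam11, Adam28, Adamts16 and Adamts20 were detected on 1 or 2 arrays and were not tested. Adam19, Adam1a, Adamts2, Adamts5 and Adamtsl5 were not analysed here.

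Among the 23 tested members, 9 passed: the 4 members Thsd4, Adamtsl1, Adam23 and Adamtsl4 were higher in ki, and the 5 members Adamtsl2, Adamts9, Adamts6, Adamts1 and Adamts4 were lower. That is 39.1% of the tested members, where 16.2% of all genes tested passed, 8.71% upward and 7.5% downward. The ki and wt arrays did not overlap for 12 of the 23 members, 5 higher and 7 lower in ki. The same held for 38.4% of all genes tested, 20.3% higher and 18.1% lower. The median difference was 0.06 over the tested members and 0.01 over all genes tested, and the median absolute difference was 0.28 over the members and 0.16 over all genes. Differences of members ran from -1.31 to 2.29, with 14 above 0 and 9 below. Each of the 23 was detected on at least 1 array of each genotype, and 17 were detected on all 6. By branch, 1 of 9 ADAMs passed, upward, 4 of 9 ADAMTS genes passed, all downward, and 4 of 5 ADAMTS-like genes passed, 3 upward and 1 downward. The Adamts9 call rests on its brightest probe, and its other tested probe had the opposite sign.

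**Figure D1:**
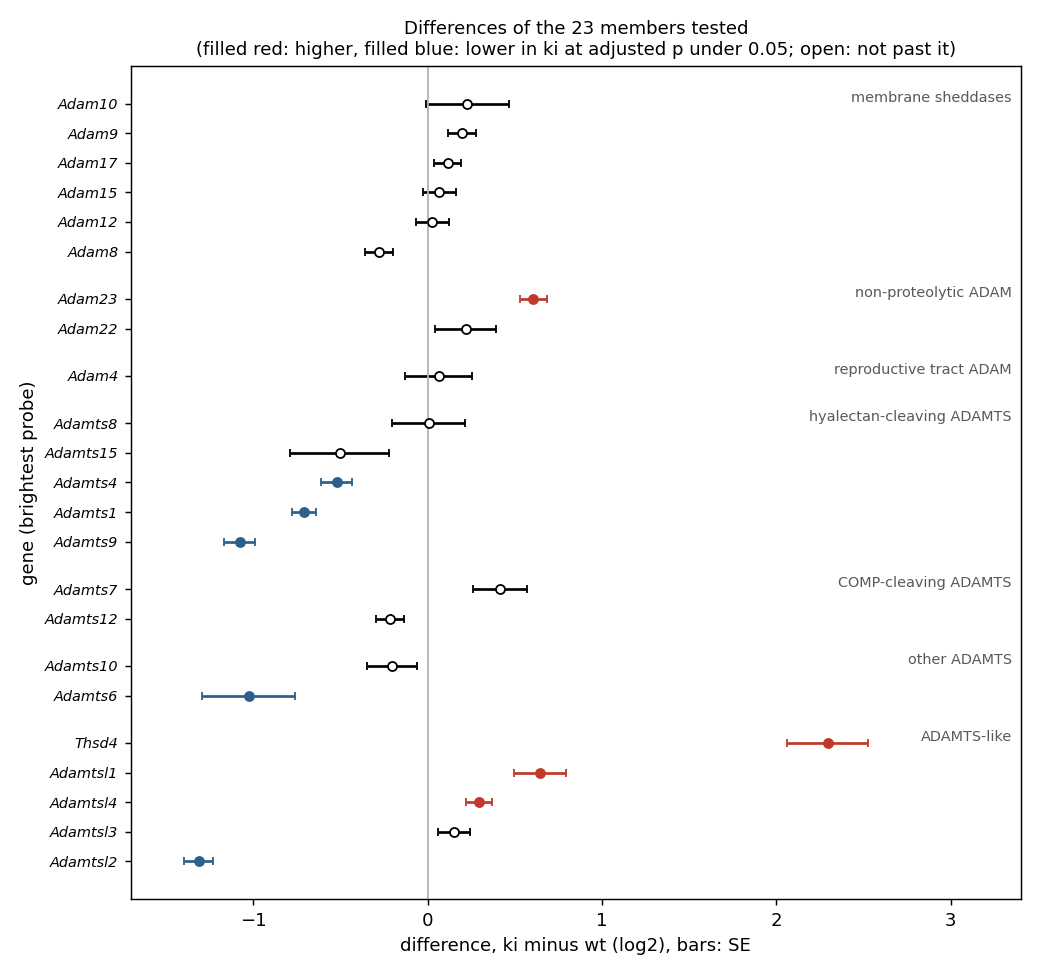
Difference of each of the 23 tested members, ki minus wt on the log2 scale, with bars of 1 SE (n = 3 mice per genotype), grouped by role. Filled red points passed upward, filled blue points passed downward and open points did not pass; the differences run from -1.31 for Adamtsl2 to 2.29 for Thsd4.

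The ADAMTS-like genes moved in both directions. Thsd4 encodes a microfibril-associated protein that binds fibrillin-1 and promotes microfibril assembly in mice. It had levels of 8.81, 8.43 and 9.32 on ki arrays 1 to 3, against 6.30, 6.68 and 6.70 on wt arrays 1 to 3. All 3 ki arrays lay above all 3 wt arrays, and the gap between the groups was wider than the range within either. The mean was 8.85 ± 0.44 in ki and 6.56 ± 0.23 in wt (SD, n = 3 each), a 4.91-fold increase (difference 2.29, SE 0.23, adjusted p = 0.00129).

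A further Thsd4 probe had 7.06, 6.53 and 7.43 on ki arrays and was detected on no wt array. Against the lowest level detected on each wt array this was at least 2.40-fold higher in ki, with a difference of 1.70 between the measured levels (probe-level adjusted p = 0.00585). The remaining 2 Thsd4 probes were detected on no array.

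Adamtsl2 encodes a secreted glycoprotein that binds fibrillin-1 and the latent TGF-beta binding protein Ltbp1, and its human gene is mutated in geleophysic dysplasia. It moved the other way, with levels of 6.03, 6.08 and 5.99 on ki arrays and 7.30, 7.48 and 7.27 on wt arrays. The ki arrays were nearly level with each other and all lay below the wt arrays. The ki levels were near the detection limit, as the lowest levels detected on ki arrays 1 to 3 were 5.70, 5.82 and 5.76. The mean was 6.03 ± 0.043 in ki and 7.35 ± 0.11 in wt (SD, n = 3 each), so wt was 2.49-fold higher (difference -1.31, SE 0.085, adjusted p = 0.00022).

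Adamtsl1, also called punctin, is a secreted matrix glycoprotein. Its levels were 6.49, 6.35 and 6.59 on ki arrays and 5.95, 6.02 and 5.51 on wt arrays, of which 2 had it detected. It rose 1.56-fold in ki (difference 0.64, SE 0.15, adjusted p = 0.0302), and the ki and wt arrays did not overlap. Leaving out ki array 1, ki array 3 or wt array 1 ended the call (adjusted p = 0.0844, 0.0869 and 0.0625). It also did not pass on the authors' normalised intensities (adjusted p = 0.0577), without further background correction (0.0528), or with the brightest wt array and the dimmest ki array both left out (0.0935).

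Adamtsl4 encodes a fibrillin-1-binding protein of the eye's zonule and other tissues, and its human gene is mutated in ectopia lentis. It had 8.66, 8.65 and 8.66 on ki arrays and 8.36, 8.29 and 8.44 on wt arrays, again with no overlap. The increase was 1.23-fold (difference 0.29, SE 0.074, adjusted p = 0.041). Leaving out any 1 array ended the call (adjusted p 0.0649 to 0.132), and with arrays scaled to their median over all probes the difference was 0.08 (adjusted p = 0.771). Adamtsl3, also called punctin-2, differed by 0.15 (SE 0.091, adjusted p = 0.311), with overlapping arrays.

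**Figure D2:**
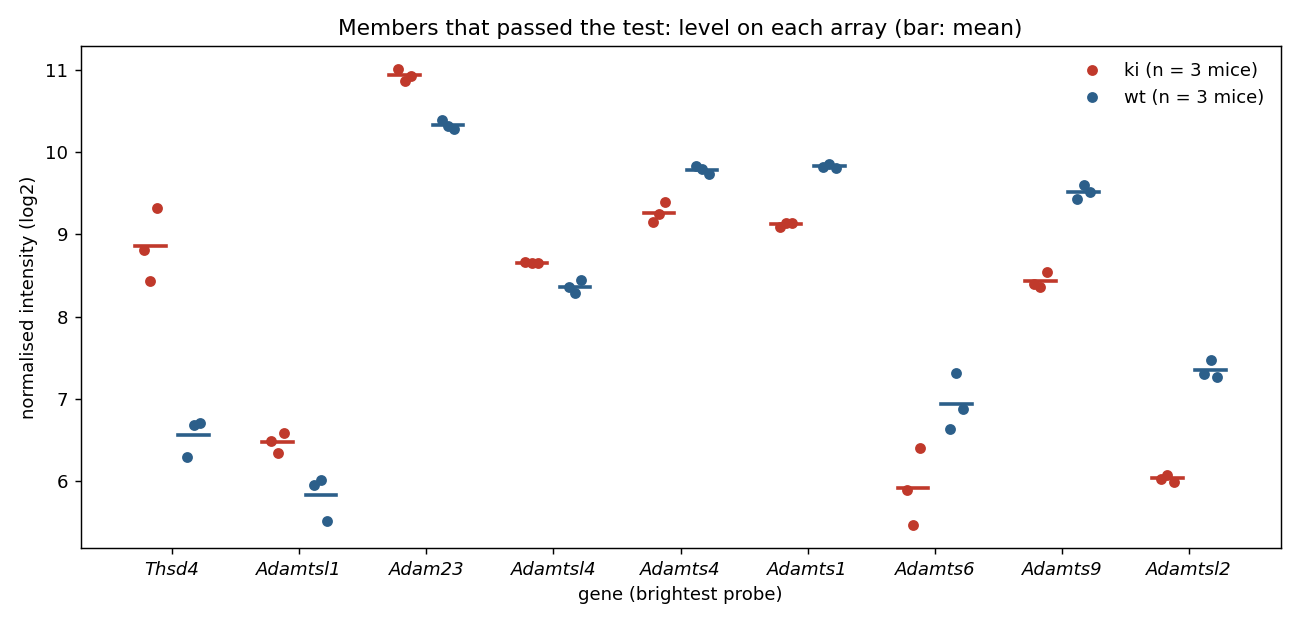
Normalised log2 intensity of the brightest probe of the 9 members that passed, one point per array (ki red, wt blue, n = 3 mice each), with a bar at each group's mean. For all 9 the 3 ki arrays lie on one side of the 3 wt arrays; Thsd4 has ki levels of 8.43 to 9.32 against wt levels of 6.30 to 6.70.

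The region around an annotated transcription start is shown for the ADAMTS-like members with the largest change in each direction. Whether the transcript measured by a probe begins at the printed start was not tested. Each run holds 250 bases before the start and 50 after it, on the gene's strand, from RefSeq on GRCm38.p6. Capitals mark matches to the GC box GGGCGG, on either strand, and to the TATA box TATAAA. The table held 2 starts for Thsd4, and the upstream one, chr9:60510986-60511285 on the minus strand, is printed. The Adamtsl2 region is chr2:27079129-27079428 on the plus strand.
Thsd4: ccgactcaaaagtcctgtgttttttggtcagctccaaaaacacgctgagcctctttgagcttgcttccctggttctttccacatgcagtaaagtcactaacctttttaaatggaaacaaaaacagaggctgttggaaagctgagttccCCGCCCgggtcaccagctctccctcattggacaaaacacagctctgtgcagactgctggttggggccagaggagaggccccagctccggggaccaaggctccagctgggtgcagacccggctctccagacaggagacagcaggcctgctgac
Adamtsl2: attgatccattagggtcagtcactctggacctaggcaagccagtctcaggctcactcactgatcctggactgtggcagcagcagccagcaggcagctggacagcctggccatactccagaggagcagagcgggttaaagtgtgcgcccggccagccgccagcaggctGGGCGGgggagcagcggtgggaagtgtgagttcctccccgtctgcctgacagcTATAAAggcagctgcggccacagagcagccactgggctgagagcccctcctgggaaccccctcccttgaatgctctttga

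The Thsd4 region was 55.0% G or C and held 1 GC box match, at -102 from the start and on the opposite strand. The region of the other Thsd4 start, chr9:60141171-60141470, held none. The Adamtsl2 region was 62.3% G or C and held a GC box match at -83 and a TATA box match at -30. Of 32851 RefSeq promoters of this length, 35.7% held the GC box letters and 13.6% the TATA box letters on either strand, and the median share of G or C was 52.7%. The motifs TGANTCA (AP-1), TGACGTCA (CRE) and GGAATG (TEAD), searched on both strands, had no match in these regions. They were present in 7.81%, 1.79% and 14.7% of all promoters.

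On their brightest probes, the secreted proteases that cut hyaluronan-binding proteoglycans fell where they passed. Of the list's 5 tested members, Adamts1, Adamts4, Adamts8, Adamts9 and Adamts15, 3 were lower in ki, 0 were higher and 2 did not pass, with a median difference of -0.52. Of all genes tested, 7.5% passed downward. Adamts9 is among the lower members by its brightest probe only. Its other tested probe had the opposite sign (0.59), and the mean of its probes did not pass. Adamts1 cuts aggrecan and versican and is known for its part in ovulation. Its levels were 9.09, 9.13 and 9.14 on ki arrays and 9.82, 9.86 and 9.81 on wt arrays. Neither group spread by more than a small part of the gap between them. The mean was 9.12 ± 0.027 in ki and 9.83 ± 0.024 in wt (SD, n = 3 each), so wt was 1.63-fold higher (difference -0.71, SE 0.068, adjusted p = 0.00104). Its other 2 probes gave -0.57 and -0.56 (probe-level adjusted p = 0.0335 and 0.0625), each with no overlap between genotypes. Adamts1 passed under all 20 alternatives run for it.

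Adamts4, aggrecanase-1, had levels of 9.15, 9.25 and 9.39 on ki arrays and 9.83, 9.79 and 9.73 on wt arrays. All ki arrays lay below all wt arrays, and wt was 1.44-fold higher (difference -0.52, SE 0.088, adjusted p = 0.00966). It passed with any 1 array left out (adjusted p 0.0126 to 0.0424), and did not pass with the brightest wt array and the dimmest ki array both left out (difference -0.49, adjusted p = 0.0987). The remaining members of the list did not pass. Adamts15, another versican-cutting enzyme, had 6.78, 5.81 and 6.51 on ki arrays and 7.09, 7.09 and 6.44 on wt arrays. The groups overlap (difference -0.50, SE 0.29, adjusted p = 0.286). With arrays scaled to their median over all probes, which put the median of all genes at -0.22, Adamts15 passed (-0.61, adjusted p = 0.0267). Adamts8, its neighbour on chromosome 9 in the RefSeq gene order, differed by 0.01 (SE 0.21, adjusted p = 0.986) with a 95% interval of -0.49 to 0.51, and it was detected on 2 ki arrays and 1 wt array.

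Adamts9, a versican-cutting enzyme that also takes part in trafficking at the base of primary cilia, depended on the probe. Its brightest probe had 8.40, 8.37 and 8.54 on ki arrays and 9.43, 9.60 and 9.51 on wt arrays. There was no overlap, and wt was 2.11-fold higher (difference -1.08, SE 0.087, adjusted p = 0.0006). The other probe was detected on all 3 ki arrays, at 6.04, 5.86 and 6.43, and on no wt array, where the measured levels were 5.48, 5.37 and 5.72. It was at least 1.29-fold higher in ki against the lowest detected wt level, and its difference of 0.59 did not pass (SE 0.17, probe-level adjusted p = 0.0651). The mean of the 2 probes differed by -0.25 (adjusted p = 0.186). In the array annotation no transcript is named for the brightest probe, whereas the other probe is assigned to a RefSeq transcript. The call for Adamts9 depends on the probe.

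The start regions of Adamts9 and Adamts1 are shown in the same way, as those of the ADAMTS members with the largest changes that the RefSeq table held. The Adamts9 region is chr6:92943485-92943784 and the Adamts1 region chr16:85803064-85803363, both on the minus strand of GRCm38.p6, with capitals as above.
Adamts9: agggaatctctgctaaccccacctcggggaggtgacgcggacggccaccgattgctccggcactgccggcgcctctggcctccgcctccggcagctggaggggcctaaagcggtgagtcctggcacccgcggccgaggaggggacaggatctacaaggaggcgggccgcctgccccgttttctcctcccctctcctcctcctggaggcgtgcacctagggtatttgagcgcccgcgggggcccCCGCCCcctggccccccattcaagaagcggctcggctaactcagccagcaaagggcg
Adamts1: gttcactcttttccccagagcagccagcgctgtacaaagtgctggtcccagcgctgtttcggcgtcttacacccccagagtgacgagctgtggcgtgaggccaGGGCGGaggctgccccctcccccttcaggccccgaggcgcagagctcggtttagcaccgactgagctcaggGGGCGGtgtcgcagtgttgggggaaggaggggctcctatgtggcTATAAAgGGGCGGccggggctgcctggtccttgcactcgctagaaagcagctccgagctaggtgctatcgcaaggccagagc

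Adamts9 held 1 GC box match, at -7 and on the opposite strand, in a region of 70.0% G or C. Adamts1 held 3 GC box matches, at -147, -76 and -25, and a TATA box match at -32 that does not overlap them, in a region of 64.7% G or C. The AP-1, CRE and TEAD letters had no match in either. Over the 29 members in the table, 15 of 30 promoters held a GC box match, 6 a TATA box match, 4 an AP-1 match, 1 a TEAD match and 0 a CRE match.

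Adamts6 and Adamts10 are close relatives tied to fibrillin microfibrils. Adamts6 had levels of 5.89, 5.46 and 6.40 on ki arrays, of which 2 had it detected, and 6.64, 7.32 and 6.87 on wt arrays. The spread within each genotype was wide, with no overlap between them, and wt was 2.04-fold higher (difference -1.03, SE 0.27, adjusted p = 0.045). The call was kept without ki replicate 3 (adjusted p = 0.0245) and lost without any other 1 array (adjusted p 0.0653 to 0.126). It was also lost on the authors' normalised intensities (adjusted p = 0.0708), without further background correction (0.0665), without the detection filter (0.0565), and with the brightest wt array and the dimmest ki array both left out (0.0945). Its second tested probe had 5.72, 5.62 and 6.01 on ki arrays and 6.23, 6.51 and 6.43 on wt arrays. That probe was also lower in ki (difference -0.60, probe-level adjusted p = 0.0258). In the array annotation no transcript is named for the brightest Adamts6 probe, whereas the second is assigned to a RefSeq transcript. Adamts10 differed by -0.20 (SE 0.14, adjusted p = 0.393), and its other tested probes gave -0.49 and 0.35, neither past the threshold.

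The enzymes that cut cartilage oligomeric matrix protein did not pass. Adamts7 had 6.82, 7.12 and 7.07 on ki arrays and 6.39, 6.48 and 6.89 on wt arrays, where wt array 3 lay above ki array 1 (difference 0.41, SE 0.15, adjusted p = 0.123). Without wt replicate 3 it passed (0.57, adjusted p = 0.0421). Adamts12 had 12.53, 12.55 and 12.38 on ki arrays and 12.78, 12.66 and 12.68 on wt arrays, with no overlap (difference -0.22, SE 0.082, adjusted p = 0.129). It passed with arrays scaled to their median over all probes (-0.53, adjusted p = 0.0376) or over probes detected on all arrays (-0.32, adjusted p = 0.0397), and in limma's fit with trend and robust settings (adjusted p = 0.0138). Scaling over all probes put the median of all genes at -0.22.

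**Figure D3:**
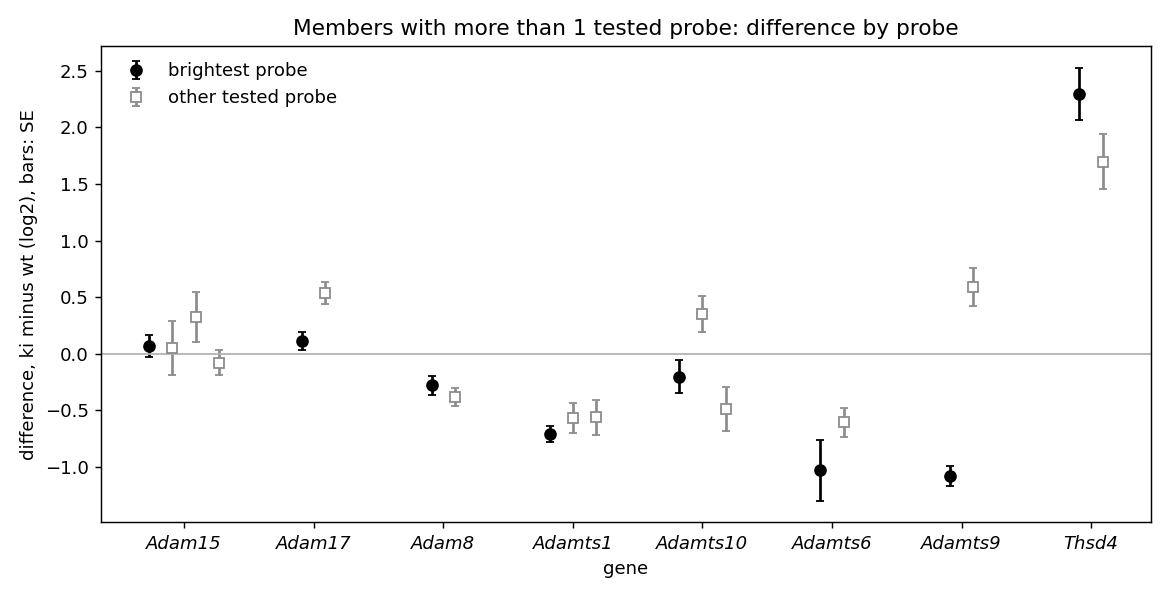
Differences by probe, ki minus wt on the log2 scale with bars of 1 SE, for the 8 members with more than 1 tested probe. Filled circles are the brightest probes and open squares the others; the probes of Thsd4, Adamts1, Adamts6, Adam8 and Adam17 share a sign within each gene, whereas those of Adamts9 lie at -1.08 and 0.59.

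The catalytically active membrane ADAMs showed no passing difference. Of the list's 6 tested sheddases, Adam8, Adam9, Adam10, Adam12, Adam15 and Adam17, 0 passed in either direction, and the median difference was 0.09. Of all genes tested, 16.2% passed. Of the 6 differences 5 were above 0. Adam17, which releases TNF and ligands of the EGF receptor, had 11.14, 11.08 and 11.20 on ki arrays and 11.10, 10.997 and 10.97 on wt arrays. The groups overlap (difference 0.11, SE 0.078, adjusted p = 0.374), with a 95% interval of -0.07 to 0.30. Its second probe had 8.01, 8.08 and 8.05 on ki arrays and 7.56, 7.33 and 7.64 on wt arrays, higher in ki with no overlap (difference 0.54, probe-level adjusted p = 0.0154). The mean of both probes differed by 0.33 (adjusted p = 0.0255), so the call for Adam17 depends on the probe.

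Adam10, which sheds Notch receptors and cadherins, was near the detection limit on its tested probe, detected on 2 ki arrays and 1 wt array (difference 0.23, SE 0.24, adjusted p = 0.565). Its 95% interval, -0.34 to 0.79, leaves room for a change in either direction. Adam9 had 11.42, 11.50 and 11.63 on ki arrays and 11.30, 11.34 and 11.33 on wt arrays, with no overlap (difference 0.20, SE 0.082, adjusted p = 0.163), and it passed in the fit with trend and robust settings (adjusted p = 0.0391). Adam12, an ADAM of mesenchymal cells and muscle, differed by 0.03 (SE 0.093, adjusted p = 0.876, 95% interval -0.20 to 0.25). Adam15 differed by 0.07 (SE 0.096, adjusted p = 0.684), and its 3 other tested probes by -0.08 to 0.32.

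Adam8, a sheddase of leukocytes and macrophages, was the one sheddase with a negative difference. Its levels were 8.72, 8.84 and 8.84 on ki arrays and 9.02, 9.05 and 9.17 on wt arrays. The genotypes did not overlap, and the difference just missed the threshold (-0.28, SE 0.081, adjusted p = 0.063). Its second probe had 8.72, 8.76 and 8.70 on ki arrays and 9.01, 9.09 and 9.21 on wt arrays (difference -0.38, probe-level adjusted p = 0.0248), and the mean of both probes passed (-0.33, adjusted p = 0.0246). Adam8 passed under 5 of 20 alternatives. The 9 neutrophil markers above were lower in ki as well, and of the 11 macrophage markers 2 were higher and 2 lower. The part of either cell type in this difference was not tested.

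Of the ADAMs without protease activity, 1 of 2 tested passed. Adam23, a receptor for LGI proteins and a ligand of integrins that is best known from neurons, had 11.02, 10.86 and 10.93 on ki arrays and 10.39, 10.31 and 10.28 on wt arrays. The groups did not overlap. The mean was 10.93 ± 0.077 in ki and 10.33 ± 0.053 in wt (SD, n = 3 each), a 1.52-fold increase (difference 0.61, SE 0.078, adjusted p = 0.00335). It passed with any 1 array left out and did not pass under scaling to each array's median over all probes (difference 0.36, adjusted p = 0.173). Adam22, its close relative, differed by 0.22 (SE 0.17, adjusted p = 0.445). Adam4, from the list of reproductive ADAMs, differed by 0.06 (SE 0.19, adjusted p = 0.86).

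The inhibitors, activators and substrates of these proteases were read from lists of related genes. The counts of each list below stand beside the share over all genes tested. Of those, 16.2% passed, 8.71% higher and 7.5% lower in ki. No test was run over any list. Of 7 tested genes for inhibitors and clearance, 1 was higher, 1 was lower and 5 did not pass, with a median of -0.06. Timp3, the matrix-bound inhibitor that acts on Adam17 and on the aggrecanases, had 14.59, 14.64 and 14.73 on ki arrays and 13.84, 13.83 and 13.95 on wt arrays. It was higher on every ki array, by 1.71-fold (difference 0.78, SE 0.078, adjusted p = 0.00129). Timp1, a soluble inhibitor mainly of matrix metalloproteinases and Adam10, had 15.08, 15.13 and 15.09 on ki arrays and 15.51, 15.48 and 15.47 on wt arrays. It was lower on every ki array (difference -0.38, SE 0.068, adjusted p = 0.0116).

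Of 15 tested genes for activation and trafficking, 1 was higher, 1 was lower and 13 did not pass, with a median of -0.01. Pcsk6, a proprotein convertase that removes the inhibitory prodomain of ADAMTS enzymes, was 1.68-fold higher in ki (difference 0.74, SE 0.086, adjusted p = 0.00218). Tspan17, a tetraspanin that escorts Adam10 to the cell surface, was lower (difference -0.35, SE 0.082, adjusted p = 0.0306), and this call was kept in 1 of 6 fits that each left out 1 array. Furin, the convertase that processes many ADAMs, differed by -0.23 (adjusted p = 0.0762).

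Of 12 tested ligands that ADAMs shed, 3 were higher and 3 lower in ki, with a median of 0.11. Csf1, the macrophage growth factor, had 11.01, 11.18 and 10.88 on ki arrays and 9.98, 10.05 and 10.03 on wt arrays, without overlap (difference 1.00, SE 0.096, adjusted p = 0.00104). Tnfsf11, the osteoclast factor RANKL, was detected on no ki array, where the measured levels were 5.14, 5.49 and 5.38, and on all 3 wt arrays, at 6.66, 6.84 and 6.50. It was at least 1.88-fold lower in ki (measured difference -1.33, adjusted p = 0.00107). Dlk1, a Notch-related membrane protein, and Btc, a ligand of the EGF receptor, each fell by 0.46 (adjusted p = 0.0104 and 0.0177). The Btc call was kept in 2 of 6 fits that each left out 1 array.

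Of 20 tested receptors and adhesion proteins shed by ADAMs, 3 were higher, 2 were lower and 15 did not pass, with a median of 0.06. Cdh1, epithelial cadherin and also 1 of the epithelial markers above, was 2.42-fold higher in ki (difference 1.28, SE 0.23, adjusted p = 0.0115). Icam1, a leukocyte adhesion receptor, was 1.57-fold higher (0.65, SE 0.081, adjusted p = 0.00304), and did not pass with arrays scaled to their median over all probes (0.36, adjusted p = 0.164). Pvr, a nectin-like adhesion receptor, had 8.58, 8.63 and 8.37 on ki arrays and 10.15, 9.90 and 10.14 on wt arrays, so all ki arrays were far below (difference -1.54, SE 0.11, adjusted p = 0.000339). Ptprk, a receptor phosphatase, was lower (-0.35, adjusted p = 0.0198), a call kept in 2 of 6 fits with 1 array left out. Axl, a receptor tyrosine kinase, was higher (0.29, adjusted p = 0.0453), a call kept in 0 of those 6 fits, and its difference was -0.0023 with arrays scaled to their median over all probes.

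In the matrix lists the proteoglycans that ADAMTS enzymes cut did not pass, while enzymes that make hyaluronan fell. Of 10 genes tested, 0 were higher and 2 were lower, with a median of -0.06, and those 2 were Has2 and Has1, hyaluronan synthases and not protease substrates. Has2 had 8.98, 8.99 and 9.05 on ki arrays and 11.10, 10.95 and 10.99 on wt arrays, 4.02-fold higher in wt (difference -2.01, SE 0.076, adjusted p = 3.3e-05). Has1 was 3.60-fold higher in wt (difference -1.85, SE 0.097, adjusted p = 0.000106). Vcan, which encodes versican, the substrate of Adamts1, Adamts4 and Adamts9, differed by -0.34 (adjusted p = 0.175). Acan, Bcan and Ncan, the other large proteoglycans of the list, were not tested.

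Of 10 tested procollagen and procollagen-processing genes, 1 was higher, 5 were lower and 4 did not pass, with a median of -0.25. Col1a2, a chain of type I collagen, had 11.65, 11.50 and 11.86 on ki arrays and 12.81, 12.85 and 13.01 on wt arrays, all ki arrays being lower (difference -1.22, SE 0.11, adjusted p = 0.000977). Col5a2 fell by 0.54 (adjusted p = 0.00396), and Col3a1 fell by 0.39 (adjusted p = 0.0144), a call kept in 4 of 6 fits with 1 array left out. Pcolce2, an enhancer of procollagen C-proteinase, was higher (0.59, adjusted p = 0.00951), and did not pass with arrays scaled to their median over all probes (0.36, adjusted p = 0.163). Of the 5 genes that were lower, Col1a1, Col1a2 and Col3a1 are also among the 5 fibroblast markers that were lower in ki.

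Of 12 tested fibrillin microfibril and elastic fibre genes, 2 were higher, 3 were lower and 7 did not pass, with a median of -0.08. Efemp1, a short fibulin, was detected on all ki arrays at 6.16, 6.36 and 6.20 and on no wt array, and was at least 1.41-fold higher in ki (adjusted p = 0.00477). Ltbp2, a fibrillin-binding protein, was detected on 3 ki arrays and 1 wt array and was higher (0.74, SE 0.16, adjusted p = 0.0257). Mfap5, a microfibril glycoprotein, was lower (-0.54, SE 0.073, adjusted p = 0.00384). Ltbp1, which binds Adamtsl2, fell by 0.40 (adjusted p = 0.0283), and the crosslinking enzyme Lox fell by 0.37 (adjusted p = 0.0298). With 1 array left out, the calls of Ltbp2, Ltbp1 and Lox were kept in 3, 2 and 1 of 6 fits. All of these genes share their arrays with the family members, so their differences are not independent of those above.

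**Figure D4:**
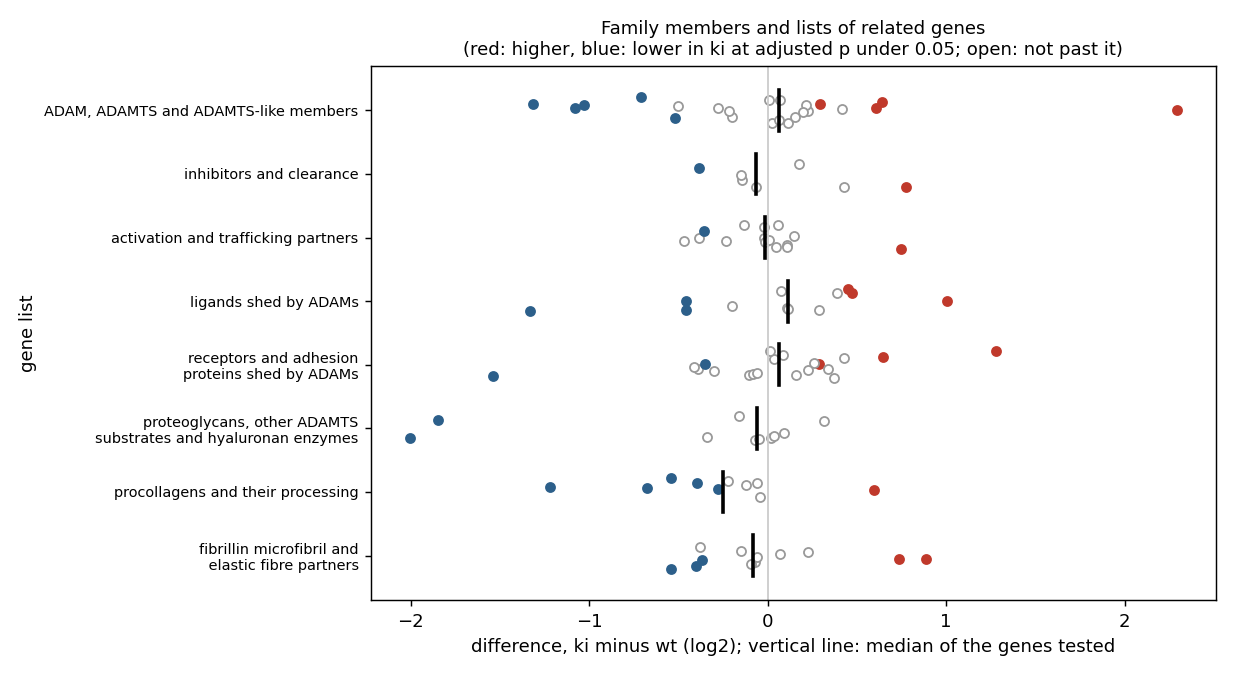
Differences, ki minus wt on the log2 scale, of the tested family members and of the tested genes of 7 related lists, one point per gene, with a vertical line at each list's median. Red points passed upward, blue points passed downward and open points did not pass; the list medians run from -0.25 for procollagens to 0.11 for shed ligands, and the family's is 0.06.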

How the data were processed

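RNA from lung fibroblasts of 3 ki and 3 wt mice was labelled as biotin cRNA and hybridised to Illumina mouse bead arrays, per the labels' protocols. The deposited intensity values used here were background-subtracted on a linear scale and not normalised between arrays, as their values show (28.59% to 32.02% below 0 per array). Beside each intensity stands a deposited detection p-value, per the file headers. The authors also deposited normalised intensity values, which the series value table equals in 100% of cells. How the arrays were scanned and how those values were normalised is not given in the sources used here.

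Background correction used limma's normexp method (limma 3.58.1, R 4.3.3), which took the negative controls' mean and variance from the detection p-values. An offset of 16 was added, and quantile normalisation and log2 followed. Gene symbols came from the array annotation, updated through gene identifiers. Of the probes, 34885 had 1 symbol, 18 had several and 10378 had none, and those with several or none entered no gene count. The genotypes were compared with limma's linear model on 4 residual degrees of freedom, with variances moderated over all 18249 detected probes. This choice of moderation was made after results had been seen, and moderation over the genes' brightest probes alone is an alternative. In log2 units the residual SD had a median of 0.12, and no change under 0.25 passed. A fold against a genotype in which no array detected the probe is a lower bound, set against the lowest level that those arrays detected.

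The members, the related lists and the marker lists were chosen with earlier results of these data known. By the rule for named genes every tested member is named, with up to 4 passing genes of each related list, those with the smallest p, or all where 5 or fewer passed. Furin, Vcan and the untested proteoglycans were named after their values were seen. The procedure was tested on simulated data. Promoters came from RefSeq (GRCm38.p6), figures from matplotlib 3.10.9 in Python 3.11.15. Alternatives changed the background correction, normalisation, offset, detection filter, variance model, array weights, replicate block, arrays included, choice of probe and threshold.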

Additional observations from a re-analysis of the deposited data

How the results depend on the processing

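Thsd4 and Adamts1 passed under all 20 alternatives run for each, with differences of 1.95 to 2.51 for Thsd4 and -0.94 to -0.61 for Adamts1, and Adamtsl2 passed under all 19 run for it (-1.44 to -0.98). Among family members 4 passed upward and 5 downward. Leaving out 1 array gave 2 to 4 upward and 4 to 5 downward. Upward there were 2 members under median scaling over all probes, under the replicate block, without 2 arrays (the brightest of wt and the dimmest of ki), and at an adjusted p under 0.01. Downward there were 8 under median scaling over all probes, 8 probes with every detected probe counted, and 3 members without those 2 arrays. Over all genes 1688 passed, with 907 upward and 781 downward. Leaving out 1 array gave 1012 to 1248, 567 to 679 upward and 433 to 569 downward. Without those 2 arrays 622 passed (352 upward, 270 downward), at an adjusted p under 0.01 it was 732 (423 upward, 309 downward), and with every detected probe counted it was 2598 probes, 1288 of them downward. Median scaling over all probes gave 361 upward and 1300 downward, with 21.7% of calls upward in place of 53.7%, and put the median of all genes at -0.22. Scaling over probes detected on all arrays gave 50.2%. The cause was not tested.

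No passing family member changed sign in its gene-level difference under the alternatives run, and of the other members 7 did. Single probes are not part of that count. The other tested probe of Adamts9 was at 0.59, against -1.08 for its brightest probe. Under median scaling over all probes Adam12 was at -0.18, Adam15 at -0.21, Adam17 at -0.16, Adam9 at -0.085, Adamts8 at -0.033 and Adamtsl3 at -0.054, and Axl, a passing gene of the related lists, was at -0.0023. Adam15 was at -0.0039 under scaling over detected probes, and Adamts8 at -0.0023 with an offset of 50. Leaving out 1 array gave -0.041 to 0.10 for Adam12, -0.089 to 0.24 for Adam4, with -0.049 as its other value below 0, and -0.17 to 0.23 for Adamts8, whose values below 0 were -0.17, -0.081, -0.039 and -0.0089.

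The replicate block lowered the calls over all genes to 1198, and Adamts6, Adamtsl1 and Adamtsl4 did not pass with it (adjusted p = 0.0962, 0.079 and 0.0882), nor did Tspan17, Ptprk, Axl, Col3a1 and Lox. It changed no other call among the named genes. The arrays share only a number: the correlations of deviations from the group means between ki and wt arrays of the same number were 0.02, 0.024 and 0.088. Of the named related genes, Timp1, Tspan17, Dlk1, Btc, Ptprk, Axl, Col5a2, Col3a1, Mfap5, Ltbp1 and Lox did not pass with the brightest wt array and the dimmest ki array both left out, each with its sign kept. Taking the mean of a gene's probes also ended the calls of Ptprk, Axl and Ltbp1 (adjusted p = 0.0655, 0.332 and 0.328), as it did for Adamts9. Leaving out the detection filter ended those of Adamts6, Adamtsl4, Tspan17, Axl, Ltbp1 and Lox.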

Other observations

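Several members lie beside each other in the RefSeq gene order. On chromosome 8, Adam18, Adam3, Adam5, Adam32 and Adam9 follow each other. Adam9 was detected on all 6 arrays, Adam32 on 1 array, and Adam18, Adam3 and Adam5 on none. Adam24, Adam25, Adam20 and Adam39 form another such run, in which Adam24 was detected on 2 arrays and the others on none. In the run of Adam26b, Adam26a, Adam34l and Adam34, only Adam34l was detected, on 1 array. Adam6b and Adam6a on chromosome 12 were detected on no array. Adamts15 and Adamts8 on chromosome 9 were detected on 5 and 3 arrays.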
